A study of Mus musculus with 6 samples.

Results

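The 8 genes described here, Irx1, Irx2, Pou3f4, Ttr, Gc, Dpp10, Slc38a5 and Sstr2, are regulators and markers of the glucagon-secreting alpha cells of the pancreatic islet. They were found by their gene symbols on the lines of the authors' deposited table, where each stands on 1 line, so the rule takes 8 of 19940 genes. RNA of hand-picked whole islets of C57BL6/J mice was sequenced in 3 samples from pregnant animals at gestational day 14.5 and in 3 samples from nonpregnant animals labelled as littermates. Both groups are of the same strain, no genetic change or drug is named for either, and the age of the animals is not given in the labels. The deposited table gives 1 mean read count per gene and group, so no value per sample and no spread between samples can be shown, and whether the groups overlap is not known. The series' design names 5 animals in each group, and no label says that each sample came from 1 animal, so the authors' p-values may measure a spread that is partly technical.

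Alpha cells release glucagon when glucose is low or amino acids are high, and glucagon makes the liver release glucose and break down amino acids. Their identity is held by homeodomain and other transcription factors that act beside those common to all islet cells, and their secretion is restrained by insulin from beta cells and by somatostatin from delta cells. In the mouse alpha cells are the second most frequent islet cell after the beta cell, so in RNA of whole islets their genes are measured together with a large excess of beta cell transcripts. Fewer alpha cells, a larger share of RNA from other cells and less RNA of a gene per alpha cell cannot be told apart in such samples.

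In the pregnant islets 4 of the 8 genes were lower, 0 were higher, and 4 did not pass the authors' test. The thyroxine carrier gene Ttr and the channel subunit gene Dpp10 both fell to 0.63 of their nonpregnant level per the authors' deposited table. Gc, the gene of vitamin D-binding protein, fell to 0.76, and the transcription factor gene Irx2 fell to 0.79 per the authors' deposited table. Irx1, Pou3f4, the amino acid transporter gene Slc38a5 and the somatostatin receptor gene Sstr2 did not pass, at ratios of 0.83, 0.73, 1.05 and 1.0 per the authors' deposited table. A gene was called when its adjusted p in that table was under 0.05, and at an unadjusted p under 0.05 the count was 4 lower and 0 higher as well. The share of all genes at that unadjusted p is not given here. At the adjusted p under 0.05, 4.15% of all 19940 genes were called lower and 7.57% were called higher. Calls need reads, and among the genes with at least 500 mean reads over both groups 6.29% were called lower, against 4 of the 6 members that reach this level. The 8 genes were chosen with earlier results of these data known, and this background was added after seeing the data. The contrast is thus no independent evidence. The median log2 ratio of pregnant over nonpregnant was -0.37 over the 8 genes and -0.01 over the 15682 genes that average at least 10 reads.

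**Figure D1:**
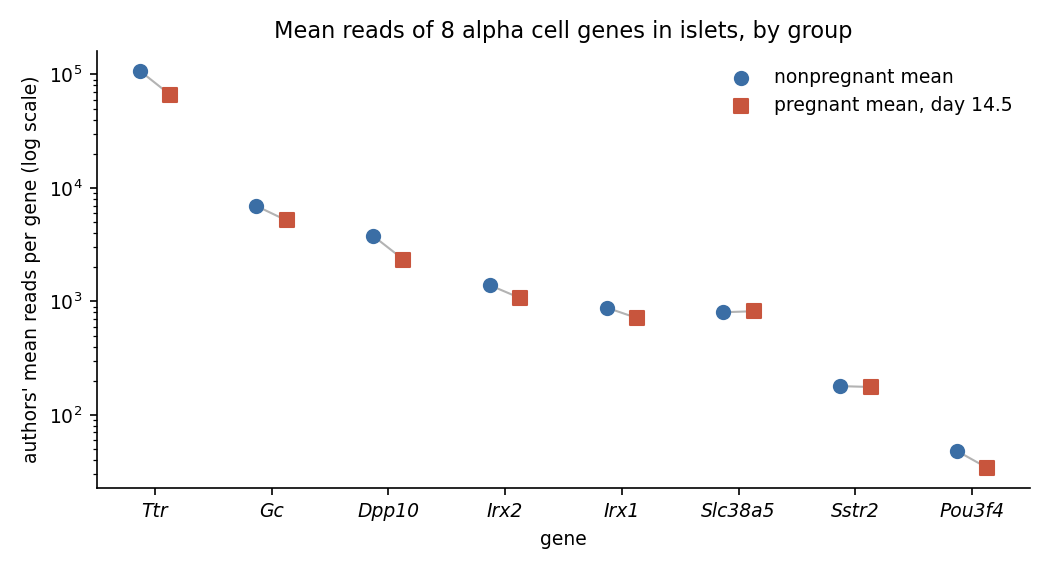
Mean reads of the 8 genes in nonpregnant islets (blue circles) and in islets of gestational day 14.5 (red squares), on a log axis, with 1 mean per group and no error bars because none can be had. The means of Ttr, Gc, Dpp10, Irx2, Irx1 and Pou3f4 lie lower in the pregnant group, while those of Slc38a5 (802 and 819) and Sstr2 (179 and 176) lie side by side.

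The 8 genes span a wide range of levels. Per kilobase of annotated exon, the scale on which genes can be compared with each other, Ttr stood first with 91220 mean reads per kb in nonpregnant and 56025 in pregnant islets. Gc followed with 3758 and 2799 mean reads per kb. Irx2 (423 and 325), Slc38a5 (358 and 365), Irx1 (336 and 272) and Dpp10 (239 and 148) formed a middle group on the same scale. Sstr2 (83.5 and 82.1) and Pou3f4 (16.4 and 11.6) came last. The order was the same in both groups except that Irx2 and Slc38a5 traded ranks 3 and 4. Whether neighbours in the middle group differ beyond the spread between samples cannot be said. The annotated exons of Dpp10 add up to 15.8 kb over all its transcripts, so its value per kb is low if islets use a short transcript.

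Of the 3 transcription factor genes, Irx2 was the one called. Irx1 and Irx2 encode Iroquois homeodomain proteins, and both lie on chromosome 13 of GRCm38 in the GENCODE M21 annotation, which gives all gene positions here, Irx1 (ENSMUSG00000060969) at 71957921 to 71963723 on the minus strand and Irx2 (ENSMUSG00000001504) at 72628820 to 72634198 on the plus strand. A gap of 665 kb separates them, and no gene between them is in the table. Irx2 had a mean of 1388 reads in nonpregnant and 1068 reads in pregnant islets per the authors' deposited table. Its log2 ratio of -0.34 passed narrowly (p = 0.00522, adjusted p = 0.0457, per the authors' deposited table), and the call is lost at an adjusted p threshold of 0.01. Irx1 had means of 880 and 713 reads in the same order per the authors' deposited table. That log2 ratio of -0.27 points the same way without passing (p = 0.254, adjusted p = 0.608, per the authors' deposited table). That Irx2 passed and Irx1 did not does not show that they differ, and the difference between them was not tested.

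Pou3f4 (ENSMUSG00000056854, chromosome X, 110814280 to 110817207, plus strand), also called Brn4, encodes a POU domain factor that binds the glucagon gene promoter. Its means were the smallest of the 8, at 48 reads in nonpregnant and 34 reads in pregnant islets per the authors' deposited table. The log2 ratio of -0.45 lies below those of Gc and Irx2 and did not pass (p = 0.26, adjusted p = 0.616, per the authors' deposited table). Among genes with at least 10 mean reads, 11.2% had fewer reads than Pou3f4.

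The relatives of these factors had few reads. Among other Iroquois genes Irx3 had 16 reads in nonpregnant and 18 in pregnant islets and Irx5 had 1 and 3 per the authors' deposited table, while Irx4 and Irx6 were not analysed here. In the class III POU family Pou3f1 had 9 and 5 reads, and Pou3f2 and Pou3f3 had 1 and 0, in the same order per the authors' deposited table. Of these 5 genes 0 were called.

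The 250 bases before the transcription start are given for Irx2, Gc and Dpp10, which were called lower. Those of Sstr2, which was not called, are given beside them. RefSeq promoter sequences of GRCm38.p6 were matched by symbol for 6 of the 8 genes, and the strand shown is that of the gene, 5′ to 3′. Capitals mark every CpG, the dinucleotide at which mammalian DNA is methylated, and 2 motif matches that are named below. The windows lie at chr13:72628570-72628819 for Irx2, chr5:89457899-89458148 for Gc, chr1:124045560-124045809 for Dpp10 and chr11:113619077-113619326 for Sstr2.
Irx2: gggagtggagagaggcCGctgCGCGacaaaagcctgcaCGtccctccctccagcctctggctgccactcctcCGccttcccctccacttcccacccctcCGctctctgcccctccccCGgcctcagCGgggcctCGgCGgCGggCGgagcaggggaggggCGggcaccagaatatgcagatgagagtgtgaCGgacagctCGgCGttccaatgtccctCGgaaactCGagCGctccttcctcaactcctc
Gc: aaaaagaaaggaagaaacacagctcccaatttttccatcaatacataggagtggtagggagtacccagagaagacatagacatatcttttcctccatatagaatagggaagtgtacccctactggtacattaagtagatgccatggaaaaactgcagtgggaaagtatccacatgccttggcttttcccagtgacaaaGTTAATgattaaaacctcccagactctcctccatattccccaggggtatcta
Dpp10: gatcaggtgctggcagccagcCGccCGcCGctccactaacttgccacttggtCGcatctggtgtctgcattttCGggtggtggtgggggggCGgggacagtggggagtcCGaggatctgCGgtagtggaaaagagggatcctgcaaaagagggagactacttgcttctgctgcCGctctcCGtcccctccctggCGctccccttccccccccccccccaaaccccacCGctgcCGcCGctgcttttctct
Sstr2: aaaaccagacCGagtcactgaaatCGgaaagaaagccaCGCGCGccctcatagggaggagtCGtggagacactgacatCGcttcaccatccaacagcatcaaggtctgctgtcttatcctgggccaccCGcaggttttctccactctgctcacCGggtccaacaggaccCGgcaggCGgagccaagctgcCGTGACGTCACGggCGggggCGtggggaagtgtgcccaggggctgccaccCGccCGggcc

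The 3 lower genes shown did not share a type of promoter, and Ttr was not among them. The Irx2 window held 19 CpG and 68.4% G and C, and the Dpp10 window 14 CpG and 65.2%, both above the median of 52.4% over 32851 promoter windows of the same length outside chromosome 18. In the Gc window the G and C content was 42% and the number of CpG was 0. The Sstr2 window, with 18 CpG and 63.6%, resembled those of Irx2 and Dpp10. A search of both strands used 6 motifs chosen after the sequences had been read. The half-site of the liver and islet factor HNF1, GTTAAT, was found in Gc, starting 52 bases before the start, and is present in 6.43% of all windows. The cyclic AMP response element, TGACGTCA, was found in Sstr2, starting 58 bases before the start, and is present in 1.55% of windows. The other motifs searched were the forkhead motif TGTTTAC and its variant TATTTAC, the POU octamer ATGCAAAT and the TATA motif TATAAA. These letters were in 3.17%, 2.73%, 1.6% and 12.4% of windows in that order, and in 0 of the windows of the 6 members. As a reference, the window of the glucagon gene Gcg held TATAAA starting 24 bases before the start on the strand of the gene and 72 bases before it on the opposite strand. It held TATTTAC starting 89 bases before the start on the strand of the gene and 194 bases before it on the opposite strand. A match is a description of the letters and no evidence of binding.

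The carrier protein genes Ttr and Gc were both lower. Ttr encodes transthyretin, which carries thyroxine and, bound to retinol-binding protein, vitamin A, and which is made in liver, choroid plexus and alpha cells. Ttr (ENSMUSG00000061808) lies on chromosome 18 at 20665280 to 20674321, plus strand. Its mean was 108187 reads in nonpregnant and 66446 reads in pregnant islets per the authors' deposited table. The log2 ratio was -0.67, the lowest of the 8 (p = 2.11e-08, adjusted p = 9.72e-07, per the authors' deposited table). Ttr took 0.128% of all mean reads in the nonpregnant and 0.0758% in the pregnant group, and 99.7% of genes with at least 10 mean reads had fewer reads.

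Gc encodes vitamin D-binding protein, which carries vitamin D metabolites in blood and binds actin released from cells. The gene (ENSMUSG00000035540) lies on chromosome 5 at 89417522 to 89457898, minus strand. Its means were 6933 reads in nonpregnant and 5164 reads in pregnant islets per the authors' deposited table. The log2 ratio was -0.39 (p = 0.000213, adjusted p = 0.00366, per the authors' deposited table). Both carriers are also liver products, and the liver genes related to Gc had few reads. Alb, the albumin gene, had 54 and 23 reads, Afm 279 and 186, and Afp 1 and 1, in nonpregnant and pregnant islets in that order, and 0 of these 3 were called per the authors' deposited table.

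Partners of the carriers were mostly not called. Of 13 genes of retinol, thyroid hormone and vitamin D handling, 0 were higher and 2 were lower, at a list median log2 ratio of -0.02. Over all genes, 7.57% were called higher and 4.15% lower. Of the 13 genes, 9 averaged at least 10 reads, and the rest had too few reads for a call to be likely. The lower ones both belong to vitamin D handling. Vdr, the vitamin D receptor gene, went from 29026 to 20767 mean reads and fell to 0.73 per the authors' deposited table (adjusted p = 0.000277). Cyp27b1, which encodes the enzyme that makes active vitamin D, went from 132 to 57 mean reads and fell to 0.45 per the authors' deposited table (adjusted p = 0.033). Rbp4, the retinol-binding protein that transthyretin carries, stood at 12488 and 12051 mean reads, a ratio of 0.99 (adjusted p = 1, per the authors' deposited table).

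Dpp10 was the called membrane protein gene among the 8. It encodes a catalytically inactive relative of the peptidase DPP4 that serves as an auxiliary subunit of Kv4 potassium channels. The gene (ENSMUSG00000036815) spans 123321471 to 124045559 of chromosome 1 on the minus strand. Its means were 3778 reads in nonpregnant and 2336 reads in pregnant islets per the authors' deposited table. The log2 ratio of -0.66 (p = 0.000138, adjusted p = 0.00256, per the authors' deposited table) is close to that of Ttr, a gene with far more reads. Of 6 relatives in its family 0 were higher and 2 were lower, beside 4.15% of all genes called lower. All 6 log2 ratios lay below 0, as did those of 52% of genes with at least 10 mean reads. Dpp4, the incretin-cleaving peptidase gene, fell to 0.77 (adjusted p = 0.012) and Dpp6, the other Kv4 auxiliary subunit gene of this family, fell to 0.77 (adjusted p = 0.00533) per the authors' deposited table. The pore-forming Kv4 genes did not pass, with Kcnd1 at 1157 and 1131, Kcnd2 at 130 and 90 and Kcnd3 at 112 and 121 mean reads in nonpregnant and pregnant islets (per the authors' deposited table). Of 8 Kv4 complex genes other than Dpp10, Dpp6, already counted among the relatives, was the 1 called, as lower.

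Slc38a5 and Sstr2, which connect alpha cells to amino acids and to somatostatin, had ratios near 1. Slc38a5 (ENSMUSG00000031170, chromosome X, 8271133 to 8280179, plus strand) encodes a transporter of glutamine and related amino acids that alpha cells raise when blood amino acids are high. Its means were 802 reads in nonpregnant and 819 reads in pregnant islets per the authors' deposited table (log2 ratio 0.07, p = 0.628, adjusted p = 0.921). Sstr2 (ENSMUSG00000047904, chromosome 11, 113619342 to 113626028, plus strand) encodes the receptor through which somatostatin inhibits glucagon release. Its means were 179 and 176 reads in the same order per the authors' deposited table (log2 ratio 0.01, p = 0.976, adjusted p = 1). The sign of both ratios depends on the scaling: with read means divided by their total the log2 ratios were -0.02 for Slc38a5 and -0.08 for Sstr2. Sstr2 lies within the span of Slc39a11, a gene on the opposite strand with 1290 mean reads in nonpregnant and 2765 in pregnant islets per the authors' deposited table. Their annotated exons share 0 bases, but no source used here says whether counting used strand.

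Relatives of these 2 genes included larger changes. Of 11 other Slc38 genes (Slc38a9 stands under 2 gene identifiers), 2 were higher and 0 were lower. Slc38a3, which encodes another glutamine transporter, went from 26 to 276 mean reads, a 10.61-fold rise (adjusted p = 0.00898, per the authors' deposited table). The acinar marker list, 17 genes of digestive enzyme-making cells that surround islets, had 102436 summed mean reads in nonpregnant and 1326027 in pregnant islets. Group means cannot show whether the rise of Slc38a3 or that of the acinar markers was shared by all samples. The part of acinar RNA in the rise of Slc38a3 and in the ratio of Slc38a5 was not tested. Slc38a10 rose 1.47-fold, from 35803 to 51539 mean reads (adjusted p = 1.34e-06, per the authors' deposited table). The 9 others stood at ratios of 0.73 to 1.17 and did not pass per the authors' deposited table. Among 10 other amino acid transporter and mTORC1 genes, the cationic amino acid transporter gene Slc7a2 fell to 0.71 (adjusted p = 0.0152) and the glutamine transporter gene Slc1a5 rose 1.4-fold (adjusted p = 0.0218) per the authors' deposited table.

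Of the 4 other somatostatin receptor genes, 1 was higher and 0 were lower. Sstr3 had 23680 mean reads in nonpregnant and 29872 in pregnant islets and rose 1.29-fold per the authors' deposited table (adjusted p = 0.00433). Per kilobase of exon Sstr3 had 5481 and 6915 mean reads, against 83.5 and 82.1 for Sstr2. Sstr1 stood at 132 and 116 reads, Sstr4 at 6 and 15 and Sstr5 at 2 and 3, and none of them passed per the authors' deposited table. Among 12 genes of somatostatin and its signalling, Gnai2, an inhibitory G protein subunit gene, was the 1 called, with a 1.62-fold rise (adjusted p = 5.72e-10, per the authors' deposited table). Sst, the somatostatin gene, was at 0.87 and did not pass per the authors' deposited table (adjusted p = 0.442).

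An approximate error can be attached to each ratio. If the deposited p came from a two-sided normal test, which the sources used here do not state, each log2 ratio and its p imply a standard error and a 95% interval. The implied intervals of the log2 ratio were -0.90 to -0.43 for Ttr, -1.0 to -0.32 for Dpp10, -0.60 to -0.18 for Gc and -0.58 to -0.10 for Irx2. For Irx1 the implied interval was -0.73 to 0.19 and for Pou3f4 -1.24 to 0.34, so both include the ratios of the called members. For Slc38a5 it was -0.20 to 0.33 and for Sstr2 -0.45 to 0.46. The interval of Sstr2 includes the log2 ratios of Irx2 and Gc, so it does not exclude a fall of that size. The lower bound of Slc38a5, in contrast, lies above the log2 ratios of all 4 called members. These intervals concern each gene alone and are no test between genes.

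**Figure D2:**
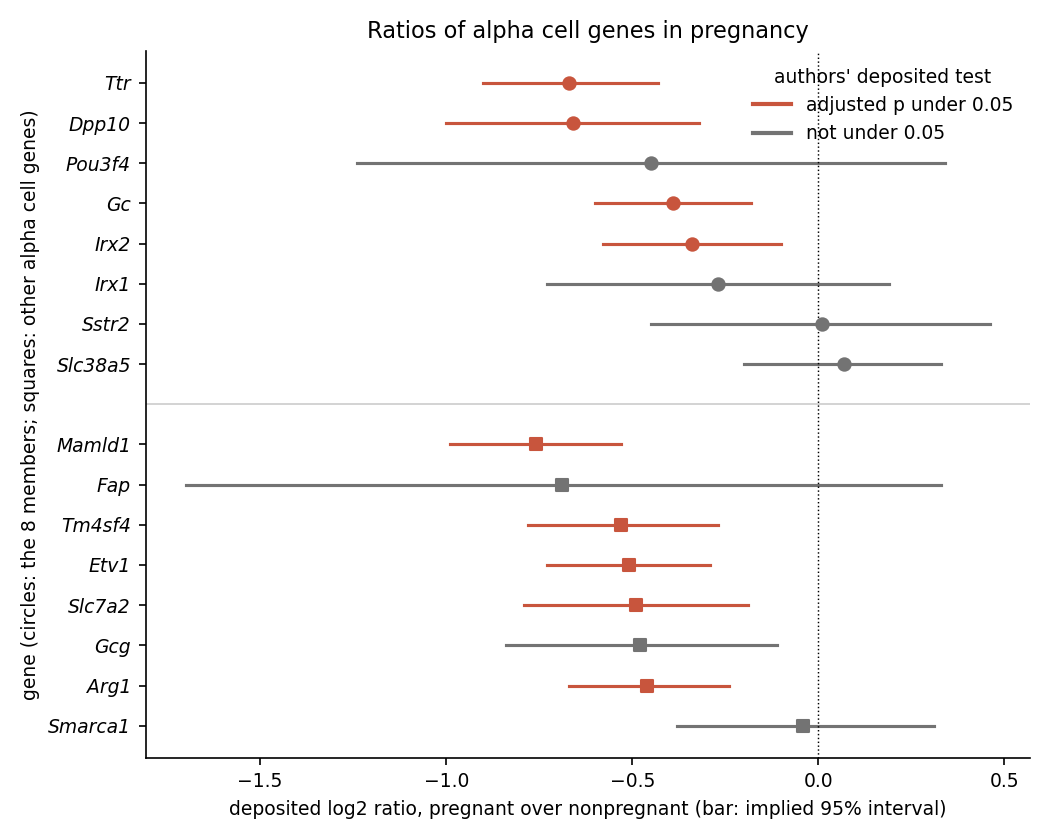
Deposited log2 ratio of pregnant over nonpregnant islets for the 8 genes (circles) and for 8 other alpha cell genes (squares), with the implied 95% interval as a bar. Red marks an adjusted p under 0.05 by the authors' deposited test: 4 of the 8 genes and 5 of the 8 others are red, and these red points lie left of 0.

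Of 8 other alpha cell genes, 0 were higher and 5 were lower, beside the 4.15% of all genes called lower, and their median log2 ratio was -0.50. Mamld1 went from 1990 to 1146 mean reads, at a ratio of 0.59 the lowest of the list (adjusted p = 1.03e-08, per the authors' deposited table). Etv1, an ETS transcription factor gene, fell to 0.7 (adjusted p = 0.000166) and Arg1, the urea cycle enzyme arginase, to 0.73 (adjusted p = 0.000651) per the authors' deposited table. Tm4sf4, a tetraspan membrane protein gene, fell to 0.69 per the authors' deposited table (adjusted p = 0.00135). Slc7a2, named above, is the fifth of these genes. The 3 others, Gcg among them, did not pass, at ratios of 0.62 to 0.98 per the authors' deposited table. All 8 genes of this list were chosen with earlier results of these data known, so their direction is no independent evidence.

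The hormone gene of the alpha cell did not pass. Gcg, the glucagon gene, had 1910194 mean reads in nonpregnant and 1337190 in pregnant islets, a ratio of 0.72 (p = 0.0107, adjusted p = 0.0772, per the authors' deposited table). Its log2 ratio of -0.48 lies between that of Gc and that of Dpp10.

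Receptors that act on glucagon release had mostly lower values, with calls in both directions. Of 9 such genes, 2 were called lower and 1 higher, beside 4.15% and 7.57% of all genes. Below 0 lay 7 of the 9 log2 ratios, as did those of 52% of genes with at least 10 mean reads. The list median was -0.35. Avpr1b, the vasopressin receptor gene of alpha cells, went from 633 to 397 mean reads and fell to 0.64 (adjusted p = 0.000467, per the authors' deposited table). Casr, the calcium-sensing receptor gene, fell to 0.71 (adjusted p = 0.00412), while the GLP-1 receptor gene Glp1r, which is expressed mainly by beta cells, rose 1.3-fold (adjusted p = 0.00379) per the authors' deposited table. Gipr and Gcgr, the receptor genes of GIP and glucagon, stood at 0.77 and 0.78 and did not pass per the authors' deposited table (adjusted p = 0.24 and 0.125).

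**Figure D3:**
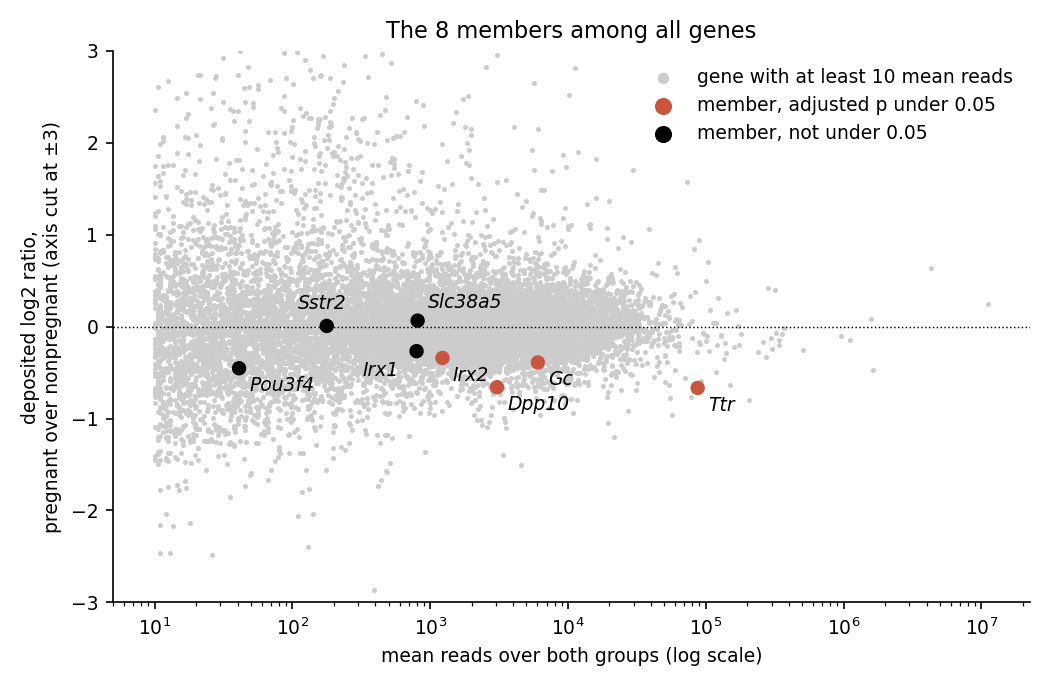
Deposited log2 ratio against mean reads over both groups (log axis) for the 15682 genes with at least 10 mean reads (grey), with the 8 genes in red where the adjusted p was under 0.05 and in black where it was not. The 4 red points lie in the lower part of the cloud, where 4.37% of genes have a lower log2 ratio than Ttr and 13.7% a lower one than Irx2, and Pou3f4 lies as low as Gc but where the cloud is wide. The axis is cut at 3 and leaves out 121 genes.

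As a check of the tissue label, Gcg alone took 2.26% of all mean reads in nonpregnant and 1.53% in pregnant islets. The 10 beta cell markers took 18.9% and 22.2%, with 2 higher and 1 lower. The 8 alpha genes took 0.145% and 0.0876%, and the 8 other alpha genes 2.38% and 1.61%, in the same order. Acinar markers took 0.121% and 1.51%, with 15 of 17 higher, 0 lower and Amy2a5 listed at 0 in the nonpregnant group. Of 6 macrophage markers 1 was higher (Lyz2, 1.32-fold, adjusted p = 0.0319, per the authors' deposited table). Their summed mean reads were 6535 and 10041, and most of that difference lay in C1qa, which had 3195 and 6370 mean reads and was not called (adjusted p = 0.0752, per the authors' deposited table). All 5 proliferation markers were higher, with 1444 summed mean reads in nonpregnant and 7655 in pregnant islets. Delta cell markers had 1 of 6 lower and PP cell markers 0 of 2 called, while 0 of 6 endothelial and 0 of 6 mesenchymal and Schwann cell markers were called. The part of these shifts in the lower alpha cell genes was not tested. With read means scaled to their total without acinar genes and hormone genes, the median log2 ratio of the 8 genes was -0.38, against -0.37 as deposited. Such scaling shifts all genes by the same amount, so it cannot show the part of a change in the mix of cells.

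**Figure D4:**
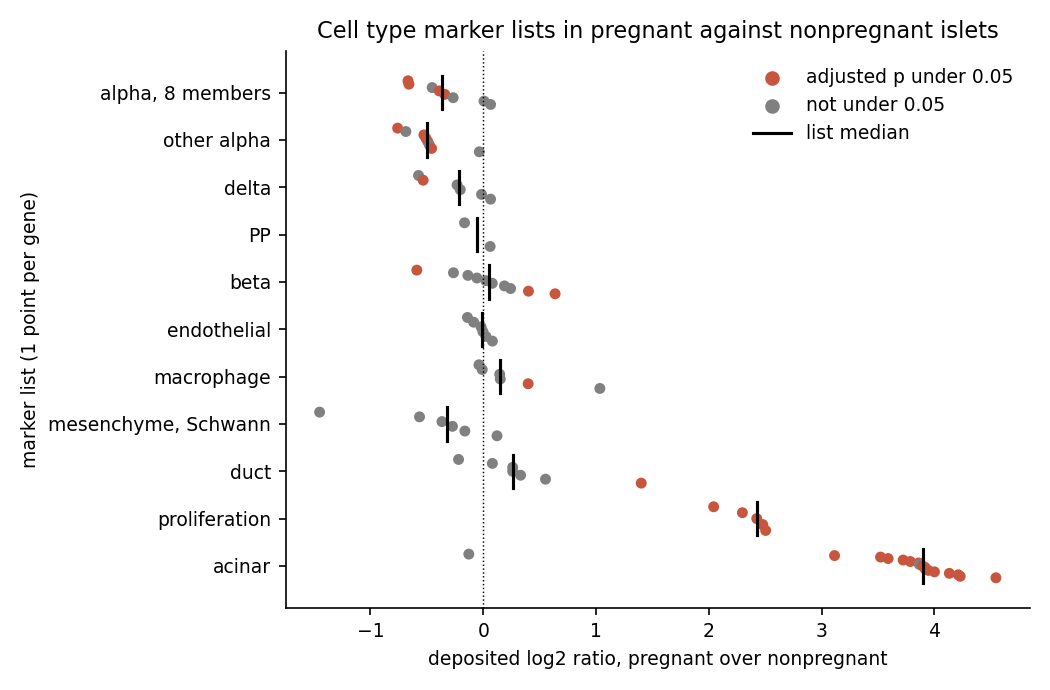
Deposited log2 ratio of each gene (1 point) in 11 marker lists, with the list median as a black line and red for an adjusted p under 0.05. The medians of the 8 alpha genes (-0.37) and of the other alpha genes (-0.50) lie left of 0, as do those of the mesenchymal and Schwann cell (-0.32) and delta cell markers (-0.22). The medians of PP (-0.05), beta (0.05) and endothelial markers (-0.01) lie near 0, those of macrophage (0.15) and duct markers (0.26) lie to the right, and those of proliferation (2.42) and acinar markers (3.90) lie far to the right.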

How the data were processed

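For the reads of mouse islet RNA, alignment and counting used GRCm38, TopHat2 2.0.12 (with TopHat and Bowtie named too) and HTSeq 0.5.3p3, per the submitters' processing notes. The authors deposited 1 table with a mean read number per gene and group, rounded to whole numbers and treated here as a score, since no source used here gives the scaling of libraries. The same deposited table holds a fold change (linear ratio), its log2, a p-value and an adjusted p-value from a test that the sources do not describe. Mean reads sum to 87654449 in the pregnant and 84493872 in the nonpregnant group. Repeated lines of 1 gene were counted once, leaving 19940 genes, of which 19256 (96.6%) matched GENCODE M21 by identifier for positions and exon lengths.

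No test was run here: calls are the deposited adjusted p under 0.05 over all genes, with direction from the deposited log2 ratio. Benjamini-Hochberg values recomputed from the deposited p gave 2337 calls, as many as were deposited, and this code was tested on simulated data. The deposited log2 ratio lies a median of 0.04 above that of the read means. The 8 genes and all lists were chosen with earlier results of these data known. Named genes were the 8 members, Gcg, and up to 4 called genes of the smallest p per list; genes without a call in the families and partner lists are given by their values, and the acinar and proliferation lists only by their counts and sums. Exceptions, chosen after their values were seen, are the uncalled Rbp4, Alb, Afm, Afp, Kcnd1 to Kcnd3, Sst, Gipr and Gcgr, named for their role beside a member, Amy2a5, named for its value of 0, C1qa, named for its weight in a sum, and Slc39a11, named for its overlap. From the list of other alpha cell genes, 2 genes that were not called are not reported here, so its share of called genes is higher than over the full list. Alternatives are given at the end. Python 3.11.15, pandas 2.3.3, numpy 2.4.6, scipy 1.17.1 and matplotlib 3.10.9 were used.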

Additional observations from a re-analysis of the deposited data

How the results depend on the processing

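The count of lower members was 4 at an adjusted p under 0.1, 4 with adjustment over genes of at least 10 mean reads, 4 with the direction taken from read means scaled to their total, and 3 at an adjusted p under 0.01, where Irx2 is lost. Members called higher numbered 0 under the same alternatives. The lower other alpha cell genes numbered 4 to 6. The shares of all genes under these alternatives are not given here. The median log2 ratio of the 8 genes ranged from -0.45 with scaling to total mean reads to -0.34 with the 7 members of at least 100 mean reads. Scaling to total moved the median gene to -0.10, so part of that lower value applies to all genes. Ttr, Dpp10, Gc, Irx2, Irx1 and Pou3f4 stayed below 0 in 7 of 7 scalings and pseudocounts, while Slc38a5 was below 0 in 2 of 7 and Sstr2 in 6 of 7. No paired analysis was possible because the table holds 1 mean per group. For the same reason the fits without single libraries and the count tests per library were not run, so a result that rests on 1 library could not be found. The background over genes with at least 500 mean reads was added after seeing the data.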

Other observations

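Transcription factor genes of islet endocrine cells, not all of them shared by every cell type, were mostly not called in the pregnant islets. Of 13 such genes, 1 was higher and 1 was lower, with a median log2 ratio of -0.06. Mnx1, a homeobox gene of beta cells and motor neurons, went from 1934 to 3482 mean reads, a 1.84-fold rise (adjusted p = 1.03e-08, per the authors' deposited table). Foxa2, a forkhead gene needed for glucagon production and alpha cell maturation, went from 7272 to 5689 mean reads and fell to 0.8 (adjusted p = 0.0245, per the authors' deposited table). Its ratio is close to that of Irx2, at 0.79.

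Among markers of islet cells that are not alpha cells, Hhex, the transcription factor gene of delta cells, went from 2064 to 1391 mean reads and fell to 0.69 (adjusted p = 0.000142, per the authors' deposited table). In the beta cell list Ins1, an insulin gene, went from 3449821 to 5230668 mean reads and rose 1.55-fold (adjusted p = 1.61e-08, per the authors' deposited table). G6pc2, the islet glucose-6-phosphatase gene, went from 275838 to 355666 mean reads and rose 1.32-fold (adjusted p = 0.0152, per the authors' deposited table). Slc30a8, the zinc transporter gene of beta cell granules, which alpha cells also express, went from 112245 to 72861 mean reads and fell to 0.66 (adjusted p = 2.77e-07, per the authors' deposited table). Lower values were thus not confined to the alpha cell lists. Muc1, a mucin gene of ducts and other epithelia, rose 2.64-fold from 129 to 333 mean reads (adjusted p = 0.0216, per the authors' deposited table), the 1 called of 7 duct markers.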
